A study of Macaca mulatta with 13 samples.

Results

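Collagen transcripts were examined in a thigh muscle, the vastus lateralis, of 13 old rhesus monkeys (Macaca mulatta), all male. A collagen gene was taken to be any gene whose symbol in the platform annotation was COL, a number, A and a number, with no further suffix, on a probe set that carried no other symbol. This gave 35 genes with 60 probe sets, of 14132 genes named by 1 symbol and 52766 non-control probe sets on the array. The 8 calorie-restricted (CR) monkeys were 27 to 32 years old, and the 5 monkeys on the control diet were 27 to 30 years old. Restriction had lasted 18.5 years. The titles call the samples biological replicates, and each monkey gave 1 one-colour Affymetrix array. How far intake was restricted, and what the diets held, the sources used here do not give. The question was whether the signal of the fibrillar, basement membrane and other collagens differs between the diets. The annotation used here named no probe set for COL4A1, COL4A2, COL5A1, COL6A5, COL6A6, COL8A1, COL17A1, COL22A1 or COL23A1, and these 9 genes of the RefSeq gene table for the rhesus monkey were not analysed here.

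Collagens are extracellular matrix proteins in which chains wind into helical trimers, some made of identical chains and others of chains from different genes. Fibrillar collagens such as types I, III and V assemble into the tensile fibrils of the endomysium, perimysium and tendon, whereas type IV collagen forms the sheet-like network of the basement membrane that wraps each muscle fibre and capillary. Type VI collagen forms beaded filaments at the border between both, and mutations in its chains cause muscular dystrophies in humans. In skeletal muscle much of the collagen mRNA comes from fibroblasts and related interstitial cells, and ageing muscle is known for a build-up of matrix between its fibres. In bulk tissue, fewer cells of a type and less RNA per cell cannot be told apart. The values are MAS5 signals, a brightness per probe set on a linear scale, and the signal of a probe set was not set against that of another, because probe sets bind with different strength. The summed signals of gene lists given below do add different probe sets, so the members with the highest signals weigh most in them. Each gene is given by the brightest of its probe sets, by mean log2 signal over the 13 arrays, and that choice says nothing of which collagen is most abundant.

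The number of arrays limits the precision. Across the 26383 probe sets tested, the correlation between any pair of arrays lay between 0.834 and 0.940, a figure across probe sets, which are not independent replicates. The lowest mean signal of the 12 named muscle fibre markers was 2444. The lowest signals in a single animal were 243 for PVALB and 1487 for TTN, both in CR animals. The summed signal of the 12 markers lay between 597646 and 1019120.0 in CR animals and between 449006 and 937152 in control animals. Control replicate 4 stood apart, with the lowest fibre marker sum of all 13 animals and the highest sum for 4 of the 6 other cell type lists, those of fibroblasts, of tendon and myotendinous junction, of endothelium with pericytes and smooth muscle, and of Schwann cells and nerve. For adipocyte markers the sum was highest in CR replicate 2. Each tested adipocyte marker was also set against its own mean over the 13 arrays. The mean log2 deviation of these markers was highest in control replicate 4, at 1.83. Values without that animal are given beside the results it moved most, and for all 35 collagens in the plot of differences. Its array also had the highest actin 3-prime over 5-prime ratio, a measure of RNA quality, at 2.41 on the log2 scale, against 1.74 ± 0.31 in CR animals and 1.75 ± 0.38 in all control animals (SD, n = 8 and n = 5). The GAPDH ratio was 0.71 ± 0.13 in CR and 0.58 ± 0.23 in control animals (SD), a difference that did not pass a two-sided exact permutation test (p = 0.208).

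No collagen gene passed the test between the diets. Of the 35 genes, 27 lay in the brighter 50% of probe sets that was tested, and limma's moderated test with Benjamini-Hochberg adjustment over all tested probe sets called 0 of them higher and 0 lower in CR, where it called 0% of all probe sets in each direction. The adjusted p from limma was 0.999 for each of the 27. At an unadjusted p under 0.05, 2 of the 27 were lower in CR, COL4A5 and COL11A1, where 1.18% of all tested probe sets were lower at that level, and 0 were higher, where 1.25% of all were. Signals of the diets overlapped for all 27 genes, and they did not overlap for 0.072% of all tested probe sets. On the log2 scale the difference, CR minus control, was below 0 for 16 of the 27 genes and for 51.9% of all tested probe sets. The median difference was -0.10 over the 27 genes and -0.012 over all tested probe sets. With control replicate 4 left out it was below 0 for 11 of the 27 genes, with a median of 0.039, against -0.013 over all tested probe sets.

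Type I collagen, the main tensile collagen of muscle connective tissue and tendon, is built from COL1A1 and COL1A2 chains. The COL1A1 signal lay between 1667 and 6767, with a median of 3655, in the 8 CR animals, against 3470.2, 9891, 2667, 16322 and 1284 in control replicates 1 to 5. The control animals enclosed the CR animals on both sides: control replicates 2 and 4 were above every CR animal and control replicate 5 below every one. The log2 difference was -0.35 ± 0.50 (SE), with a 95% interval of -1.41 to 0.72, and it did not pass limma's test (unadjusted p = 0.5). Without control replicate 4 the log2 difference was 0.12, so that its sign rested on that animal. A second, dimmer COL1A1 probe set differed by 0.17 on the log2 scale.

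COL1A2 had the same arrangement of animals. Its signal lay between 5675 and 14498, with a median of 11751, in CR animals, against 9199, 17866, 7096, 39537 and 4247 in control replicates 1 to 5, again with control replicate 4 the highest and control replicate 5 the lowest of all 13. On the log2 scale the difference was -0.19 ± 0.43 (SE, interval -1.09 to 0.72), or 0.26 without control replicate 4. A second COL1A2 probe set differed by -0.28 on the log2 scale. The spread of the log2 signal was wide among control animals for both chains, with SDs of 0.70 in CR and 1.48 in control animals for COL1A1, and of 0.58 in CR and 1.25 in control animals for COL1A2. The control SDs without control replicate 4 were 1.22 for COL1A1 and 0.86 for COL1A2.

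COL5A2 encodes a chain of type V collagen, a minor partner of type I that takes part in starting fibrils. Its signal lay between 3745 and 5960.3, with a median of 5092, in CR animals, against 4177, 5701, 4105, 5094 and 4395 in control replicates 1 to 5. By the brightest probe set of each gene, this was the narrowest spread of the fibrillar genes tested. The SD of the log2 signal was 0.20 in CR and 0.20 in control animals, and the log2 difference was 0.081 ± 0.14 (SE, interval -0.22 to 0.38). The other 3 COL5A2 probe sets differed by between -0.33 and 0.28 on the log2 scale, so the direction is not settled by the array. They also spread more widely, with SDs from 0.24 to 0.64 in CR and from 0.39 to 1.24 in control animals. COL3A1, the chain of type III collagen, which is fine-fibred and abundant in the endomysium, had 1 named probe set, which could not be checked against a second one. Its signal lay between 264 and 586, with a median of 309, in CR animals, against 349.9, 399, 262, 444 and 326 in control replicates 1 to 5. Its range was 2.22-fold in CR and 1.69-fold in control animals, and the log2 difference was -0.056 ± 0.22 (SE), or 0.00014 after quantile normalization.

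The type XI chains COL11A1 and COL11A2, best known from cartilage, where type XI sits in the core of type II fibrils, both had lower mean log2 signals in CR. COL11A1 had a signal between 114 and 393, with a median of 297, in CR animals, against 505, 993, 373, 1193 and 155 in control replicates 1 to 5. All 8 CR animals lay below the control mean on the log2 scale, but control replicate 5 lay below all CR animals except CR replicate 4. The log2 difference was -1.03 ± 0.45 (SE, unadjusted p = 0.0347, limma), and it was -0.72 without control replicate 4, with an unadjusted p of 0.125 from limma. Without control replicate 5, the lowest control, it was -1.46, with an unadjusted p of 0.0019 from limma. A second, dim COL11A1 probe set differed by -0.46. COL11A2 had a signal between 382 and 773, with a median of 439.9, in CR animals, against 605, 541, 586, 688 and 868 in control replicates 1 to 5. Of the CR animals, 5 lay below every control and CR replicates 3, 6 and 8 lay among them, and the log2 difference was -0.35 ± 0.22 (SE), close to the -0.33 without control replicate 4. A second COL11A2 probe set, with a mean signal of 107 at the limit of the test, differed by -1.09 ± 0.66 (SE).

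The remaining fibrillar genes gave small differences or dim signals. COL2A1, the cartilage type II chain, differed by 0.089 ± 0.26 (SE, log2), COL5A3, a further type V chain, by 0.011 ± 0.22, and COL27A1, a fibrillar chain of developing cartilage, by 0.21 ± 0.34. With control replicate 4 left out these were 0.039 for COL2A1, 0.13 for COL5A3 and 0.0096 for COL27A1. A second COL2A1 probe set, too dim to be tested with a mean signal of 47.4, differed by -0.92, on the other side of 0. Median centring of the arrays turned the COL5A3 difference to -0.020. COL24A1 was too dim to be tested, with a mean signal of 60.3 and a log2 difference of -0.84, or -0.53 without control replicate 4. Over the 10 fibrillar genes, 6 were below 0 and 4 above, with a median log2 difference of -0.12. Leaving out control replicate 4, 3 were below 0 and 7 above, with a median of 0.034. Of the 9 tested fibrillar genes 5 were below 0, against 4 after quantile normalization and 6 after median centring.

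**Figure D1:**
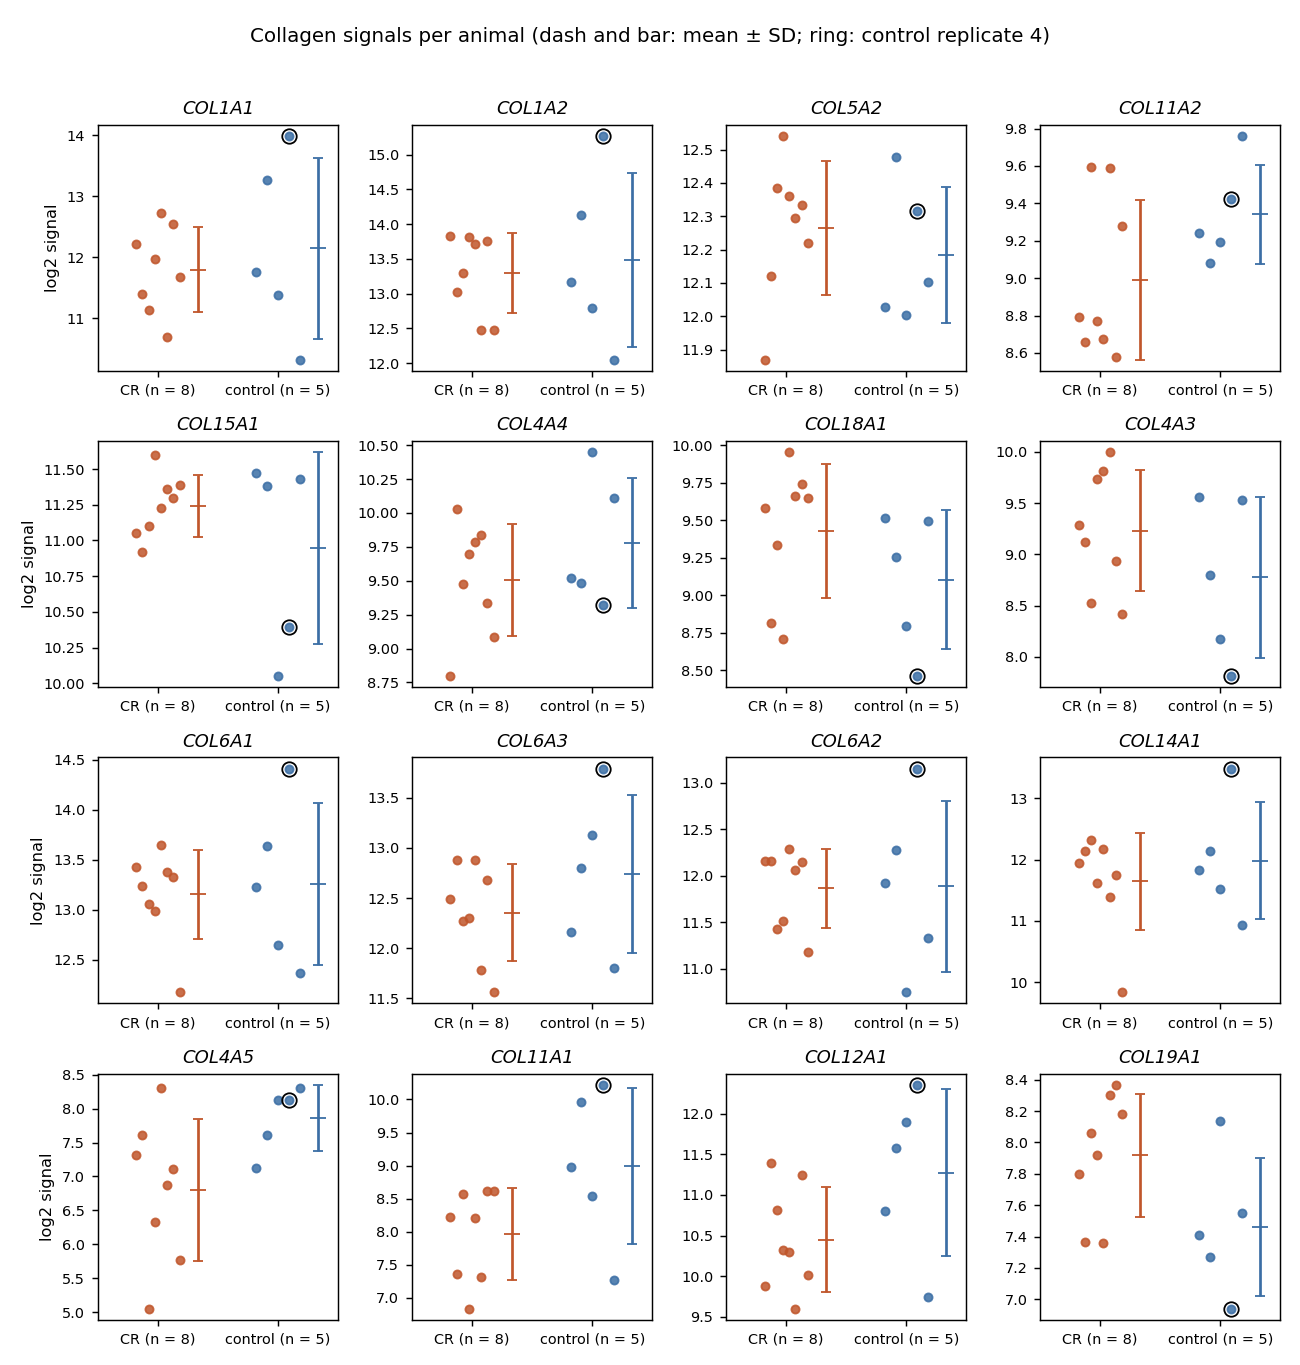
Log2 signal of 16 collagen genes in each animal, CR (orange, n = 8) left of control (blue, n = 5), with the mean and SD of each group and a ring around control replicate 4. That animal is the highest of all 13 for COL1A1, COL1A2, COL6A1, COL6A2, COL6A3, COL14A1, COL11A1 and COL12A1, and the lowest for COL18A1, COL4A3 and COL19A1.

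Basement membrane collagens showed no common direction: of 6 genes, all tested, 3 were above 0 and 3 below, with a median log2 difference of 0.052, or -0.073 without control replicate 4. In humans the named type IV genes COL4A3, COL4A4 and COL4A5 encode the chains of the kidney glomerular network, and COL4A6 that of some epithelial and smooth muscle membranes. The widespread chains of muscle basement membrane, COL4A1 and COL4A2, were not analysed here. COL4A5 had the lowest unadjusted p of the collagens. Its signal lay between 33.1 and 315, with a median of 128, in CR animals, against 139.7, 195, 281, 280.3 and 317 in control replicates 1 to 5. Of the CR animals 5 were below every control, while CR replicate 5, at 315, was close to the highest control. The log2 difference was -1.07 ± 0.46 (SE, interval -2.04 to -0.088, unadjusted p = 0.0344, limma), and -0.999 without control replicate 4, with an unadjusted p of 0.0691 from limma. The probe set was dim, with a mean signal of 148 where 107 was the least tested, and a dimmer one of the same gene differed by -0.17.

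COL4A3 and COL4A4 lie next to each other in the RefSeq gene table and gave differences of opposite sign. COL4A3 had a signal between 342 and 1021, with a median of 590.0, in CR animals, against 756, 444, 289, 225 and 741 in control replicates 1 to 5. CR replicates 4, 5 and 6 were above every control and control replicates 3 and 4 below every CR animal, and the log2 difference was 0.45 ± 0.34 (SE), or 0.21 without control replicate 4. Its second probe set differed by 0.47. COL4A4 had a signal between 445 and 1044, with a median of 772, in CR animals, against 736, 714, 1397, 639 and 1105 in control replicates 1 to 5. Control replicates 3 and 5 were above every CR animal, and the log2 difference was -0.27 ± 0.24 (SE), with a second probe set at -0.26. COL4A6 differed by -0.19 ± 0.20 (SE, log2), or -0.30 without control replicate 4. None of these passed limma's test (unadjusted p = 0.197 for COL4A3, 0.271 for COL4A4 and 0.36 for COL4A6). A second COL4A6 probe set, too dim to be tested with a mean signal of 58.3, differed by -0.71 on the log2 scale.

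The multiplexins COL15A1 and COL18A1 are basement membrane zone collagens that carry heparan or chondroitin sulphate chains, and in mice loss of type XV collagen leads to muscle fibre damage. COL15A1 had a signal between 1932 and 3099, with a median of 2459, in CR animals, against 2842, 2671, 1062, 1344 and 2757 in control replicates 1 to 5. The CR animals were close together, within the span of the controls apart from CR replicate 4, and control replicates 3 and 4 were well below all of them. On the log2 scale the difference was 0.30 ± 0.23 (SE, interval -0.19 to 0.79), 0.16 without control replicate 4 and 0.073 without control replicate 3. COL18A1, whose cleaved end gives the angiogenesis inhibitor endostatin, had a signal between 417 and 991, with a median of 783, in CR animals, against 733, 610.1, 443, 353 and 721 in control replicates 1 to 5. Its log2 difference was 0.33 ± 0.24 (SE), or 0.16 without control replicate 4, 5 CR animals were above every control, and its second probe set differed by -0.084. Of the 6 basement membrane genes, control replicate 4 was the lowest of all animals for 3, COL4A3, COL4A6 and COL18A1, and the highest for 0, whereas it was the highest for 4 of the 10 fibrillar genes.

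Type VI collagen is assembled from chains of COL6A1, COL6A2 and COL6A3, the first pair of which lie next to each other in the RefSeq gene table. COL6A1 had a signal between 4627 and 12851, with a median of 9968, in CR animals, against 9628, 12768, 6404, 21829 and 5293 in control replicates 1 to 5. CR replicate 8, at 4627, was below every other animal, control replicate 4 was above every other animal, and the log2 difference was -0.10 ± 0.30 (SE, interval -0.74 to 0.53). The gene identifier that the platform annotation gives this probe set was not found in the RefSeq table, and the other 2 probe sets of COL6A1 differed by 0.021 and 0.18 on the log2 scale. COL6A2 had a signal between 2315 and 5000.1, with a median of 4397, in CR animals, against 3876, 4971, 1720.5, 9091 and 2584 in control replicates 1 to 5. Here control replicate 3 was the lowest of all animals, and the log2 difference was -0.021 ± 0.32 (SE). COL6A3 had a signal between 3021 and 7537, with a median of 5393, in CR animals, against 4582, 7147, 8963, 14175 and 3564 in control replicates 1 to 5. Control replicates 3 and 4 were above every CR animal and CR replicates 6 and 8 below every control, and the log2 difference was -0.38 ± 0.30 (SE). Without control replicate 4 the differences were 0.18 for COL6A1, 0.30 for COL6A2 and -0.12 for COL6A3.

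Fibril-associated collagens decorate the surface of other fibrils without forming fibrils themselves. COL14A1, an abundant one in perimysium and tendon, had a signal between 916 and 5079.9, with a median of 3689, in CR animals, against 3619.9, 4526, 2951, 11432 and 1947 in control replicates 1 to 5. Control replicate 4 was the highest of all animals and CR replicate 8 the lowest, and the log2 difference was -0.33 ± 0.41 (SE), or 0.043 without control replicate 4. The other 3 COL14A1 probe sets differed by between -0.34 and 0.33. COL12A1, its close relative, in which mutations cause a human myopathy, had a signal between 776 and 2682, with a median of 1266, in CR animals, against 1788, 3047, 3814, 5237 and 859 in control replicates 1 to 5. Of the 8 CR animals 7 lay below the control mean on the log2 scale, but control replicate 5 was below all of them except CR replicate 6. The log2 difference was -0.83 ± 0.39 (SE, unadjusted p = 0.05004, limma), -0.56 without control replicate 4 and -1.21 without control replicate 5 (unadjusted p = 0.0028, limma).

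COL19A1, a fibril-associated chain of basement membrane zones, had the lowest unadjusted p among the collagens with a higher mean in CR. Its signal lay between 164 and 330.0, with a median of 254, in CR animals, against 170.2, 155, 281, 123 and 187 in control replicates 1 to 5. Of the CR animals 3 were above every control, CR replicates 2 and 5 lay among the lower controls, and the log2 difference was 0.46 ± 0.26 (SE, interval -0.084 to 0.998, unadjusted p = 0.0922, limma). The log2 difference was 0.33 without control replicate 4, the lowest animal. COL21A1, a chain found around vessel walls, differed by -0.68 ± 0.37 (SE, log2), with 6 of 8 CR animals below every control and an unadjusted p of 0.0876 from limma. COL16A1 differed by -0.41 ± 0.37, COL9A2, a cartilage chain, by 0.26 ± 0.28, and COL20A1 by 0.20 ± 0.38 (SE, log2). These were -0.13 for COL16A1, 0.18 for COL9A2 and -0.13 for COL20A1 without control replicate 4.

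Of the other collagens in the test, COL8A2, a short-chain network collagen, differed by -0.71 ± 0.76 (SE, log2), with single signals from 9.17 to 274 in CR animals and from 36.0 to 486 in control animals. COL28A1, found in mice around peripheral nerves, differed by 0.42 ± 0.39. Leaving out control replicate 4 gave -0.33 for COL8A2 and 0.27 for COL28A1. The other 7 genes of this class were dim and not tested, and their log2 differences are given as values only. They were -0.81 for the anchoring fibril gene COL7A1, -1.06 and -0.64 for the membrane-spanning COL13A1 and COL25A1, -0.60 and -0.087 for the cartilage chains COL9A1 and COL9A3, -0.012 for the growth plate collagen COL10A1 and -0.39 for COL26A1. Second, dimmer probe sets differed by -0.67 for COL7A1, -0.30 for COL13A1, 0.71 for COL25A1, -0.063 for COL9A1 and -1.32 for COL10A1. COL13A1 takes part in the upkeep of the neuromuscular junction. By its brighter probe set, 7 of 8 CR animals lay below the control mean of the log2 signal. The dim genes spread widely, with SDs of the log2 signal from 0.83 to 1.60 in CR and from 0.93 to 2.49 in control animals, COL24A1 included. On either side of the limit of the test, COL8A2 had a mean signal of 125 and COL4A5 of 148, and COL7A1 had 104 and COL26A1 103. Over all 19 collagens that are neither fibrillar nor of the basement membrane, 15 were below 0 and 4 above, with a median log2 difference of -0.38. Without control replicate 4, 11 were below 0 and 8 above, with a median of -0.13. Of the 12 tested genes among them, 8 were below 0 and 4 above, with a median of -0.22. Without control replicate 4, 6 of the 12 were below 0 and 6 above, with a median of -0.037.

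**Figure D2:**
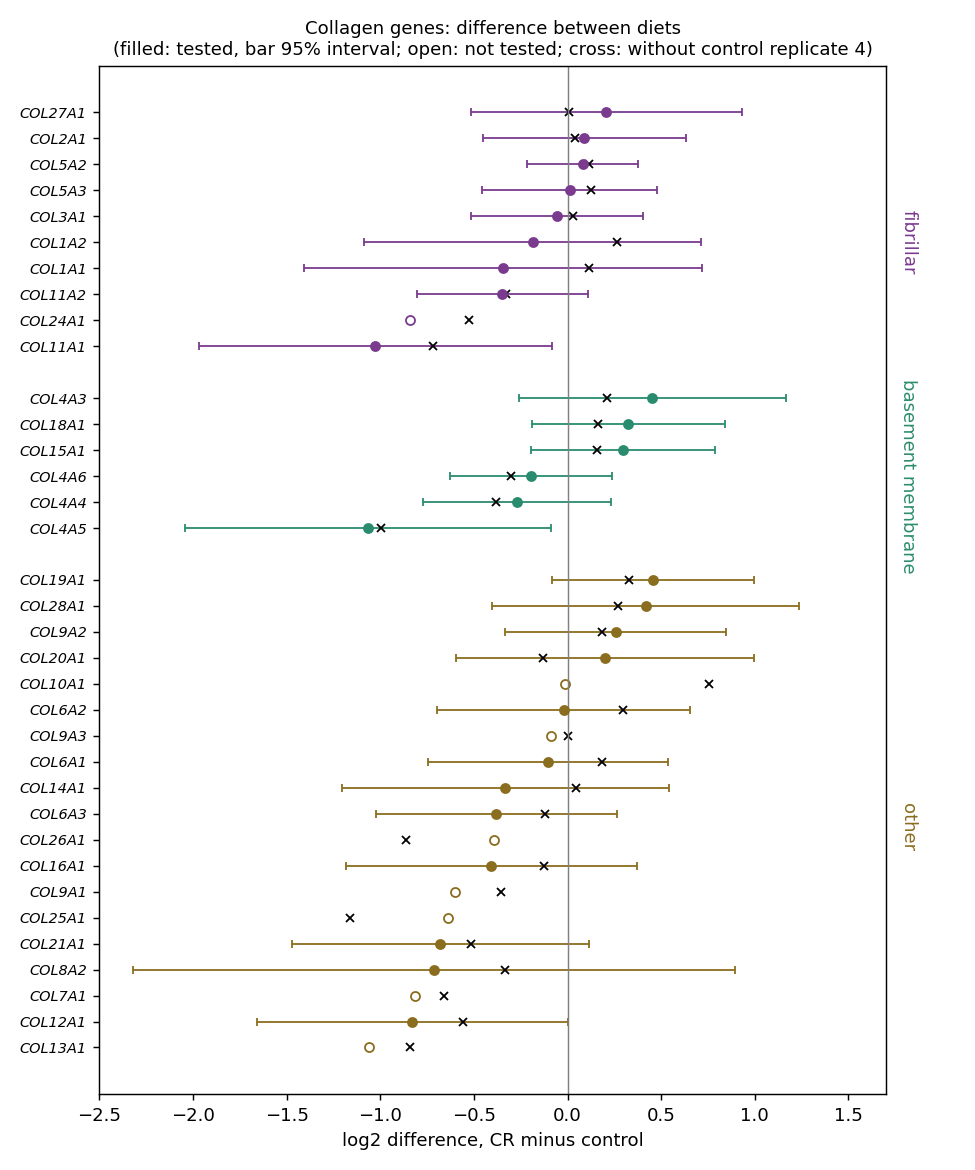
Log2 difference (x axis, CR minus control) of each of the 35 collagen genes, in 3 classes, with filled points and 95% intervals from limma for the 27 tested genes and open points for the 8 that were not tested. Crosses give the difference without control replicate 4, which moves to the other side of 0 for COL1A1, COL1A2, COL3A1, COL6A1, COL6A2, COL9A3, COL10A1, COL14A1 and COL20A1.

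The level of each class in each animal was summarised as the mean, over its tested genes, of the log2 deviation from each gene's own mean over the 13 arrays. For the 9 fibrillar genes it was -0.067 ± 0.24 in CR animals and 0.11 ± 0.39 in control animals (SD, n = 8 and n = 5). The values ran from -0.32 to 0.34 in CR animals and were 0.057, 0.34, -0.22, 0.65 and -0.29 in control replicates 1 to 5. The diets thus overlapped, with control replicate 4 the highest animal. For the 6 basement membrane genes the mean deviation was -0.029 ± 0.31 in CR animals and 0.047 ± 0.37 in control animals (SD). The values ran from -0.50 to 0.51 in CR animals and were 0.21, 0.068, -0.17, -0.42 and 0.54 in control replicates 1 to 5. Here control replicate 4 was the lowest control and control replicate 5, the lowest control for the fibrillar genes, the highest. For the 12 other genes the mean deviation was -0.068 ± 0.37 in CR animals and 0.11 ± 0.38 in control animals (SD), with CR replicate 8 the lowest of all, at -0.62, and control replicate 4 the highest, at 0.66. No p is given for these class levels, since the genes were chosen with earlier results known.

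**Figure D3:**
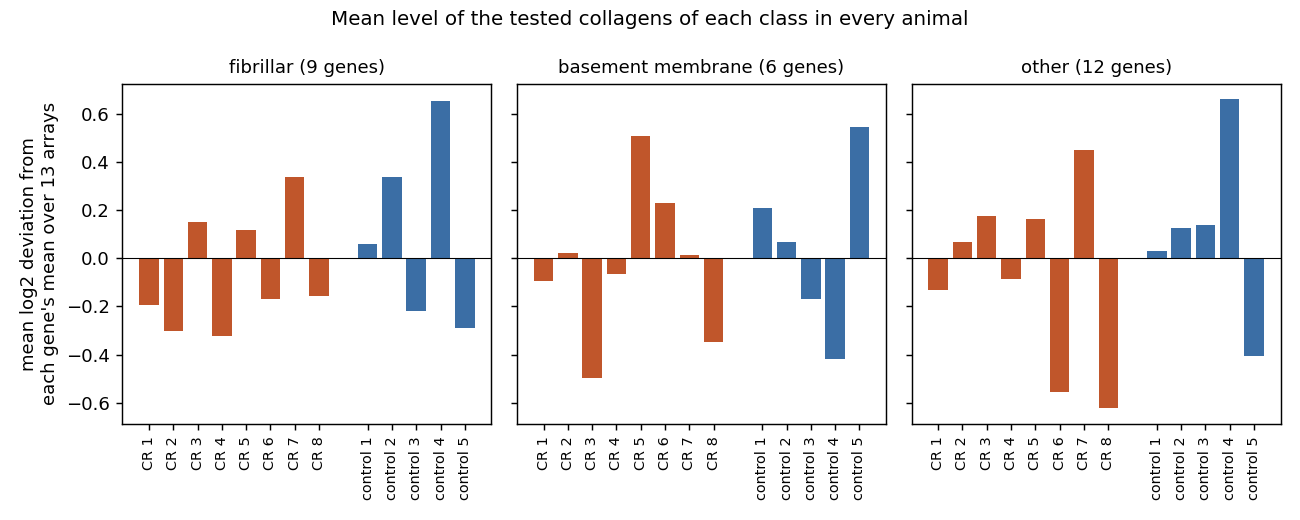
Mean log2 deviation (y axis) of the tested collagens of each class in each animal, CR bars left of control bars. Control replicate 4 has 0.65 for the fibrillar and 0.66 for the other collagens but -0.42 for the basement membrane collagens, and CR and control bars overlap in each panel.

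The spread between animals was wider in control than in CR animals for 26 of the 35 genes, with a median SD of the log2 signal of 0.59 in CR and 0.90 in control animals, or 0.60 in control animals without control replicate 4. Among the 27 tested genes the control SD was the wider for 20, and among all tested probe sets for 55.8%. Without control replicate 4 it was the wider for 22 of 35 genes and 17 of 27 tested genes, and for 45.8% of all tested probe sets. The range between animals was 4.06-fold in CR and 12.7-fold in control animals for COL1A1. It was 2.55-fold in CR and 9.31-fold in control animals for COL1A2. For the brightest COL5A2 probe set, the narrowest of 4 in log2 SD, it was 1.59-fold in CR and 1.39-fold in control animals. The control ranges without control replicate 4 were 7.70-fold for COL1A1 and 4.21-fold for COL1A2. Control replicate 4 had the highest signal of all animals for 11 of the 27 tested genes and the lowest for 5. Over all tested probe sets it was the highest for 16.9% and the lowest for 14.7%.

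Chains of the same collagen type followed each other from animal to animal in type I and, for COL6A1 and COL6A2, in type VI. Relations were computed for 11 gene pairs over the 13 animals, of which 6 pairs were added after the data were seen, and 4 pairs had an adjusted p under 0.05 in a two-sided permutation test. COL1A1 and COL1A2 had r = 0.92 and rho = 0.88 (permutation p = 4e-05 and 0.00018, adjusted 0.00022 and 0.00099). Without control replicates 2 and 4, the animals farthest from the median COL1A1 signal, r was 0.85, and within the 8 CR animals it was 0.76 (exact permutation p = 0.0406, adjusted 0.223). COL6A1 and COL6A2 had r = 0.92 and rho = 0.96 (permutation p = 4e-05 and 2e-05, adjusted 0.00022 and 0.00022). Without control replicate 4 and CR replicate 8 r was 0.87, and within the CR animals 0.89 (exact permutation p = 0.00188, adjusted 0.0207). The smallest p that 100000 resamples can give here is 2e-05.

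The other relations were weaker or rested on few animals. COL6A1 and COL6A3 had r = 0.70 and rho = 0.55 (permutation p = 0.00826 and 0.053, adjusted 0.0227 and 0.117). But r was 0.28 without control replicate 4 and CR replicate 8, so the relation over the 13 animals rested on those animals. Without control replicate 4 alone r was 0.51. Within the CR animals, with CR replicate 8 among them, r was 0.70 (exact permutation p = 0.0714, adjusted 0.262). COL1A1 and COL6A1 had r = 0.75 and rho = 0.70 (permutation p = 0.0041 and 0.0095, adjusted 0.015 and 0.0348), and r was 0.51 without control replicates 2 and 4 and 0.27 within the CR animals (exact permutation p = 0.549, adjusted 0.844). COL1A1 had r = 0.61 with COL14A1 (rho = 0.58, permutation p = 0.0257 and 0.044, adjusted 0.0565 and 0.117), and 0.30 without control replicates 2 and 4. It had r = 0.58 with COL12A1 (rho = 0.46, permutation p = 0.0391 and 0.119, adjusted 0.0718 and 0.218), and 0.21 without the same animals.

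COL1A1 was not shown to follow COL3A1, which had the 1 unchecked probe set, with r = 0.39 and rho = 0.24 (permutation p = 0.2 and 0.423, adjusted 0.29 and 0.516), and 0.14 without control replicates 2 and 4. For COL1A1 and COL15A1 r was -0.21 and rho -0.12 (permutation p = 0.476 and 0.694, adjusted 0.523 and 0.694), with 0.054 without control replicates 2 and 4. The last 3 pairs, of genes next to each other in the RefSeq table or with 1 coding gene between them (COL4A5 and COL4A6), gave r = 0.15 for COL4A3 and COL4A4 (rho = 0.34, adjusted permutation p = 0.624 and 0.361), 0.31 for COL4A5 and COL4A6 (rho = 0.22, adjusted permutation p = 0.348 and 0.516) and 0.37 for COL3A1 and COL5A2 (rho = 0.36, adjusted permutation p = 0.29 and 0.356). Their raw p were 0.624, 0.284 and 0.211 for r and 0.263, 0.469 and 0.226 for rho, each in the same permutation test. Without the animals farthest from the median r was 0.49, 0.26 and 0.35 in that order of pairs.

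**Figure D4:**
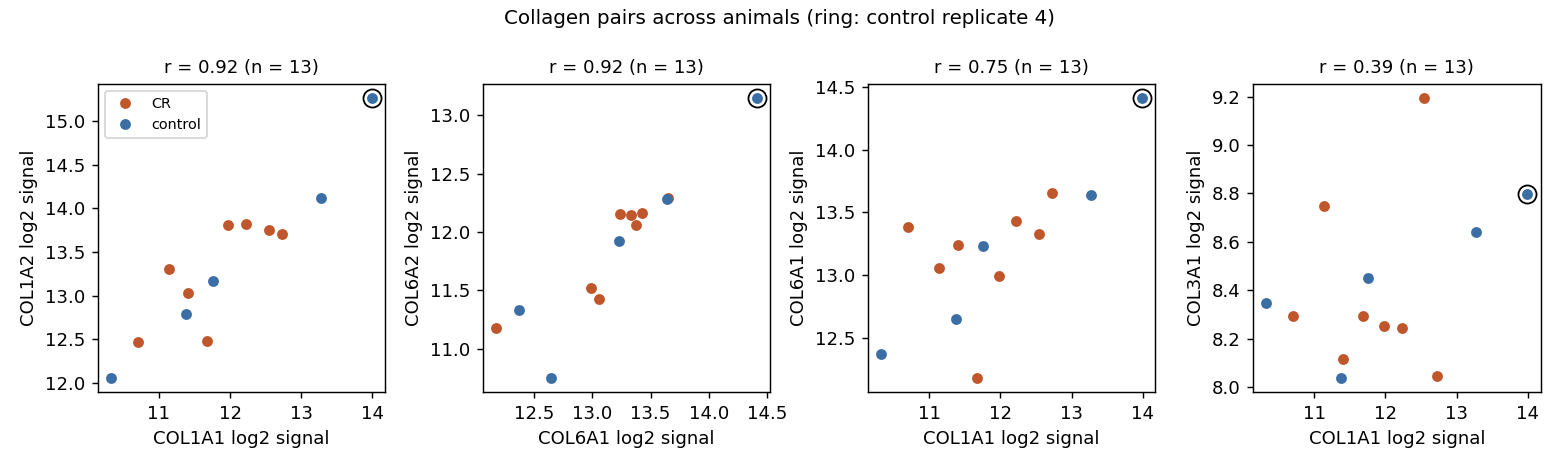
Log2 signals of collagen pairs, each point an animal (orange CR, blue control, ring control replicate 4), with r over the 13 animals above each panel. COL1A1 with COL1A2 and COL6A1 with COL6A2 lie along a line with r = 0.92 in each case, while COL1A1 with COL3A1 scatters (r = 0.39).

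Probe sets of the same gene did not always follow each other. Of the 10 genes with more than 1 tested probe set, 4 had probe sets with differences on both sides of 0: COL5A2, COL6A1, COL14A1 and COL18A1. In 10 relations between the brightest and second brightest probe set, the adjusted permutation p of r was under 0.05 for 3 genes. They were COL1A2 (r = 0.97, rho = 0.95, permutation p = 2e-05, adjusted 0.0002), COL4A3 (r = 0.86, rho = 0.87, permutation p = 0.0003, adjusted 0.0015) and COL6A1 (r = 0.78, rho = 0.77, permutation p = 0.0019, adjusted 0.00633). Without the 2 animals farthest from the median these r were 0.92, 0.84 and 0.82 in the same order. For COL5A2 r was 0.0036 (rho = 0.10, permutation p = 0.989, adjusted 0.989) and for COL14A1 0.019 (rho = 0.14, permutation p = 0.953, adjusted 0.989). For COL15A1 r was 0.12 (rho = -0.18, permutation p = 0.657, adjusted 0.939) and for COL18A1 -0.13 (rho = -0.038, permutation p = 0.771, adjusted 0.964). Without the 2 animals farthest from the median these r were 0.23, 0.37, -0.31 and 0.073 in that order. The values of COL5A2, COL14A1, COL15A1 and COL18A1 above are thus those of 1 probe set each. For COL6A2 r was 0.62 (rho = 0.63, permutation p = 0.0237, adjusted 0.0591). For COL4A4 it was 0.47 (rho = 0.52, permutation p = 0.103, adjusted 0.207). For COL11A2 it was 0.33 (rho = 0.18, permutation p = 0.262, adjusted 0.436). Leaving out the 2 farthest animals gave 0.64, 0.77 and 0.49 for these genes.

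Genes that fold, crosslink, break down or bind collagen were read beside the collagens. No member of the 6 lists passed limma's test, where 0% of all tested probe sets passed. At an unadjusted p under 0.05 from limma there were 0 members, where 1.25% of all tested probe sets were higher and 1.18% lower. The median log2 difference of each list was below 0, and over all tested probe sets it was -0.012. Of 21 tested genes of collagen folding, modification and processing, 13 were below 0 (median -0.092). SERPINH1, the collagen chaperone HSP47, differed by 0.23 ± 0.17 (SE, log2), the procollagen protease gene TLL1 by -0.53 ± 0.34 and FKBP10, a prolyl isomerase that assists lysyl hydroxylation of collagen, by -0.37 ± 0.27. Of 6 crosslinking genes, 5 were below 0 (median -0.35), among them the lysyl oxidase relatives LOXL2 at -0.59 ± 0.29 (SE, unadjusted p = 0.0534, limma) and LOXL1 at -0.40 ± 0.26, and the transglutaminase gene TGM2 at -0.43 ± 0.39. Of 11 genes of collagen breakdown and its inhibitors, 8 were below 0 (median -0.11). The fibroblast protease gene FAP differed by -0.57 ± 0.48 (SE, log2), the collagenolytic cathepsin gene CTSK by -0.34 ± 0.38 and the protease inhibitor gene TIMP2 by 0.20 ± 0.19.

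The 6 tested collagen receptor genes were all below 0 (median -0.086), with -0.43 ± 0.32 (SE, log2) for ITGA11, an integrin chain of fibroblasts, -0.13 ± 0.22 for its partner chain ITGB1 and -0.30 ± 0.54 for ITGA2. Among 9 basement membrane partners 7 were below 0 (median -0.27), with -0.41 ± 0.29 for nidogen-1 (NID1), -0.40 ± 0.28 for perlecan (HSPG2) and -0.32 ± 0.22 for the laminin chain LAMC1. Among 13 genes of TGF-beta signalling, a main inducer of collagen transcription, 9 were below 0 (median -0.25), with -0.94 ± 0.71 for THBS1, which can activate TGF-beta, -0.44 ± 0.46 for the ligand gene TGFB3 and -0.35 ± 0.24 for the inhibitor gene SMAD7. For each of the 6 lists control replicate 4 had the highest summed signal of all animals. Without it the medians were 0.094 for folding and processing, -0.043 for crosslinking, 0.040 for breakdown, 0.063 for receptors, 0.028 for basement membrane partners and -0.044 for TGF-beta signalling, so that 4 of the 6 lay above 0.

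Summed markers of several other cell types were also highest in control replicate 4. Of 11 fibroblast markers, of the cells that make most collagen in muscle, 9 were below 0 (median log2 difference -0.28, or -0.100 without control replicate 4). Their summed signal lay between 65273 and 114993 in CR animals, against 154482 in control replicate 4 and 62046 to 106452 in the other controls. FBLN1 differed by -0.89 ± 0.51 (SE, log2), PRRX1 by -0.35 ± 0.23 and DPT by -0.61 ± 0.44. All 6 tested tendon and myotendinous junction markers were below 0 (median -0.89, or -0.43 without control replicate 4), TNC, THBS4 and the tenocyte gene TNMD at -0.94 ± 0.49, -0.84 ± 0.46 and -1.06 ± 0.64. Their summed signal lay between 10611 and 31516 in CR animals, against 81776 in control replicate 4 and 12386 to 38428 in the other controls.

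The summed signal of 11 named endothelium, pericyte and smooth muscle markers lay between 9070.4 and 30019.7 in CR animals, against 40633 in control replicate 4 and 13251 to 21942 in the other controls (median log2 difference -0.44 over 10 tested, or -0.21 without control replicate 4). Of these, the lowest p belonged to CLDN5 at -1.01 ± 0.52 (SE, log2), VWF at -0.50 ± 0.29 and PECAM1 at -0.54 ± 0.32. The median was -0.64 over 4 adipocyte markers (-0.19 without control replicate 4; summed signal 3467 to 35346 in CR and 3665 to 31328 in control animals), with FABP4 at -0.66, DGAT2 at -0.62 and LEP at -0.87. It was -0.073 over 6 markers of Schwann cells and nerve (S100B at -1.11, MBP at 0.27, NGFR at -0.29) and -0.083 over 8 macrophage markers (MSR1 at 0.40, AIF1 at -0.31, CSF1R at -0.22). Without control replicate 4 these medians were 0.0057 and 0.032, on the other side of 0, and S100B was at -0.42. The summed signal of the Schwann cell and nerve markers was 4846 to 11622 in CR and 5129 to 15329.8 in control animals, and that of the macrophage markers 3090.0 to 9566 in CR and 3982 to 6688 in control animals. Muscle fibre markers had a median of 0.045 over 12 (TTN at -0.70, MB at 0.36, MYL1 at 0.28), or -0.076 without control replicate 4. None of these markers passed limma's test. TTN, which encodes the giant spring protein of the sarcomere, was alone among them in having an unadjusted p from limma under 0.05, at 0.0452. Over all tested probe sets, 1.18% were lower and 1.25% higher at that level. The lowest mean signal of a named marker was 77.0 on the endothelium list, 134 on the Schwann cell list, 56.6 on the macrophage list and 215 or more on the fibroblast, tendon and adipocyte lists, where 107 was the least tested. The part of these cell types in the collagen values was not tested.

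**Figure D5:**
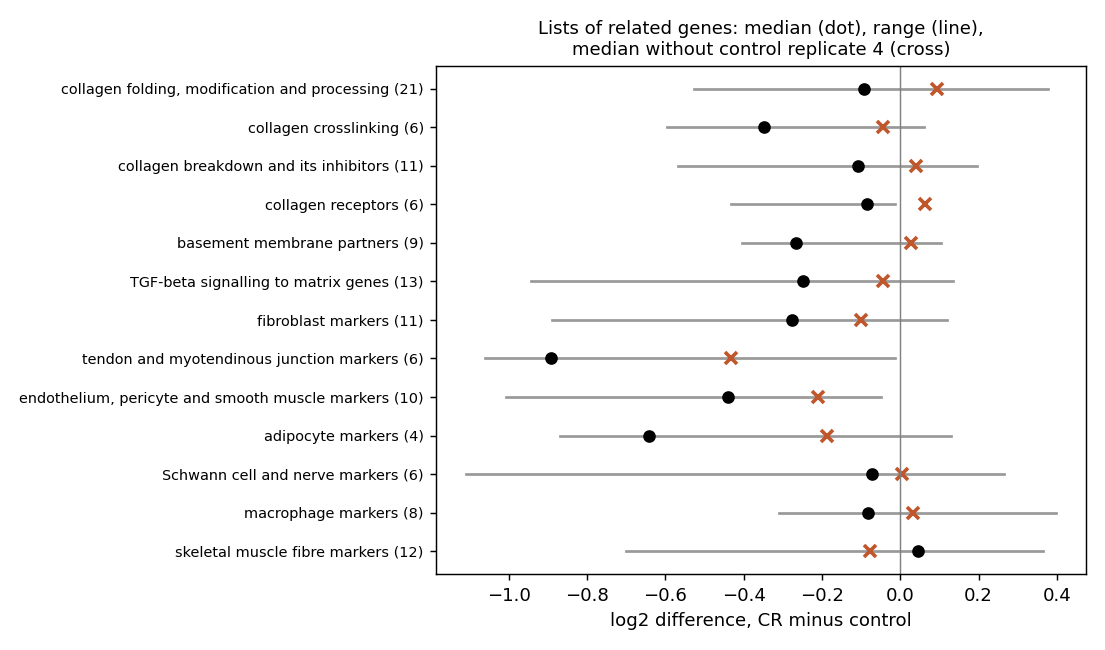
Log2 difference (x axis, CR minus control) of lists of collagen-related and cell type marker genes, with the number of tested genes in brackets. Dots are medians and lines run from the lowest to the highest gene; crosses are the medians without control replicate 4, which lie nearer to 0 than the dots for 11 of the 13 lists, all but folding and processing and muscle fibre markers.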

How the data were processed

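Per the labels, RNA from vastus lateralis of 8 CR and 5 control monkeys was hybridised to Affymetrix arrays, and the authors deposited MAS5 values per probe set, as the submitters' processing notes name the method. The deposited intensity values are linear, with a 2% trimmed mean of 500 on every array, so each array had been scaled to the same level and differences are relative to it. Array dates and extraction batches are not given in the sources used here.

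Control probe sets (99 of 52865) were left out, 137 values under 1 were set to 1, and log2 values were taken. The brighter 50% of probe sets by mean log2 signal, a mean signal of at least 107, was tested with limma 3.58.1 in R 4.3.3 (lmFit, eBayes with trend, no covariate, two-sided, Benjamini-Hochberg over 26383 probe sets, threshold 0.05). The fit was run on simulated data only as a check that it returns the differences put in. The simulated noise was independent and normal, so the check does not cover an outlying array. Intervals are 95%. Correlations used scipy 1.17.1 with 100000 resamples, or all 40320 orders within the CR animals. Symbols came from the platform annotation, which gave 1 symbol to 24956 probe sets, several to 361 and none to 27449. Of the 60 collagen probe sets, 56 had a gene identifier in the RefSeq gene table, from which only neighbours were read. Sequences were not used here. The collagen genes, classes, lists and pairs were chosen with earlier results of these data known. Every collagen is named. Signals per animal are given for the 4 brightest of each class and the 3 lowest unadjusted p in each direction, and up to 3 genes of each other list are named by lowest p. COL3A1, COL8A2, COL13A1 and COL21A1 are given in more detail than this rule asks, 3 of them chosen after their values were seen, as was PVALB. Of 11 planned pairs 6 were not run, since COL4A1, COL4A2, COL5A1 or SPARC had no named probe set. Alternatives were other normalizations, filters, offsets and probe set choices, array weights, RNA quality covariates, a replicate block and leaving out each animal.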

Additional observations from a re-analysis of the deposited data

Results flagged for a closer look

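Among 80 groups of log2 signals examined (35 collagens and 5 class levels in each diet), 7 held an animal whose gap to its neighbour was wide for the range of its group by Dixon's criterion, where chance gives about 1 in 20, or 4. In the CR animals, COL6A1 was 12.18 on the log2 scale in CR replicate 8, the lowest, against 12.99 in the next animal, and COL14A1 was 9.84 in the same animal, the lowest, against 11.40 in the next. COL4A6 was 8.41 in CR replicate 5, the highest, against 8.10 in the next. COL8A2 was 3.20 in CR replicate 6, the lowest, against 6.30 in the next, and COL10A1, too dim to be tested, was 3.66 in CR replicate 4, the lowest, against 6.39 in the next. In control replicate 1, COL9A2 was 8.07, the highest of the controls, against 7.33 in the next, and COL9A1, too dim to be tested, was 3.36, the lowest, against 6.72 in the next. No such gap was found for control replicate 4 in any collagen gene. The criterion reads only the gap to the next of the 5 controls. Control replicate 4 was still the highest of all 13 animals for 11 of the 27 tested genes.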

How the results depend on the processing

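No collagen gene passed the adjusted threshold under any alternative run, and in 546 of 582 comparisons of a gene with its value under an alternative the direction was kept. The other 36 reversed the sign in 11 genes, each with a log2 difference of at most 0.35 in size. Of the 582, 27 with no filter and 15 in the brightest 25% used the same values, so their direction was kept by construction. Averaging likewise changed nothing for genes with 1 tested probe set. Quantile normalization gave COL3A1 0.00014 and median centring gave COL5A3 -0.020. Averaging the probe sets of a gene gave COL5A2 -0.033 and COL6A1 0.031. With array weights, COL1A2 had 0.025, COL6A1 0.033 and COL6A2 0.10. With the GAPDH and actin ratios as covariates, COL2A1 had -0.00021, COL5A3 -0.10 and COL27A1 -0.025. Leaving out each animal gave ranges of -0.80 to 0.12 for COL1A1, -0.54 to 0.26 for COL1A2, -0.0034 to 0.25 for COL2A1, -0.17 to 0.030 for COL3A1, -0.13 to 0.13 for COL5A3, -0.33 to 0.18 for COL6A1, -0.31 to 0.30 for COL6A2, -0.60 to 0.043 for COL14A1 and -0.13 to 0.45 for COL20A1. The count of collagens at an unadjusted p under 0.05, 2 as reported, was 3 with median centring, with 16 added to the signal or with no filter, COL12A1 being the third. It was 0 in the brightest 25% of probe sets, where COL4A5 and COL11A1 were not tested, 1 with covariates (COL21A1, so neither reported gene), 1 with array weights (COL11A1) and 0 to 4 when each animal was left out, with 4 without CR replicate 7 and 0 without CR replicate 4 or control replicate 4. Probe sets past the adjusted threshold were 0 to 1 when each animal was left out, with 1 without control replicate 1 or 5. Of the 27 tested collagens 16 were below 0 as reported, 15 after quantile normalization or with the replicate block, 17 after median centring, 19 with covariates and 13 with array weights. The r of COL1A1 and COL15A1 was 0.084 within the CR animals and 0.13 without control replicate 4. The cause of these changes was not tested.

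The replicate numbers did not pair the animals: same-numbered animals' deviations correlated from -0.20 to 0.020, and CR replicates 6 to 8 have no control of the same number. With the replicate number as a block, 0 collagens had an unadjusted p under 0.05, and the differences of reversed sign were 0.053 for COL1A2, -0.010 for COL2A1, -0.0090 for COL5A3, 0.012 for COL6A1, 0.023 for COL6A2, 0.058 for COL14A1 and -0.038 for COL27A1. With 13 arrays, the 95% interval of a log2 difference had a median half-width of 0.55 over all tested probe sets. Some collagens had wider intervals, as from -1.41 to 0.72 for COL1A1 and from -2.32 to 0.89 for COL8A2. Others had narrower ones, as from -0.22 to 0.38 for COL5A2.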
